A study of Mus musculus with 4 samples.

Results

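Glycolysis and hypoxia response genes were followed in mesenchymal stem cells (MSC), stromal cells grown attached to plastic, with the capacity to become osteoblasts, adipocytes or chondrocytes. The list held 35 genes by symbol, of which 32 had at least 1 probe set that the platform annotation assigns to that symbol alone, out of 18194 genes with such a probe set. All cells came from C57BL/6 mice, were freed from their tissue with collagenase type I and selected by fast adherence to plastic. They were grown in low-glucose DMEM with 10% serum and 10 mM HEPES, passaged at 90 to 100% confluency, and lysed at a passage between 5 and 10. There were 2 lines from bone marrow and 2 lines from flushed colon, with no treatment and no genetic change named in the labels. Each line gave 1 Affymetrix array after RNA amplification, so that line and array cannot be told apart. The labels call the lines biological replicates and do not say whether they came from separate animals, so p-values measure only the spread between these arrays, which may be technical in part.

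Glycolysis splits glucose into pyruvate, and lactate dehydrogenase turns pyruvate into lactate when less of it is used by the mitochondria. The hypoxia-inducible factors (HIF) are transcription factors whose alpha subunits are marked for breakdown by oxygen-dependent prolyl hydroxylases. At low oxygen they bind a short DNA element and raise genes of glycolysis, of pyruvate dehydrogenase inhibition, of pH control and of mitochondrial clearance. Stromal cells of the bone marrow are known to live at low oxygen in the animal, whereas the cultures compared here shared 1 medium and the labels name no oxygen level.

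Promoters are shown for the 3 genes with the largest differences toward colonic MSC (Aldoc, Pfkfb3 and Ankrd37), for both regulators described below as separated between the tissues (Egln3 and Pdk1), and for Pgk1 and Ldha, whose intensities were close to equal on all arrays. The sequences are from RefSeq on GRCm38.p6, written in the direction of the gene, and capitals mark each match to the core of the hypoxia response element, searched as ACGTG and GCGTG on both strands, where both strands of CACGTG count as overlapping matches. Aldoc, Egln3 and Pgk1 are shown over the 250 bases before the annotated start, at chr11:78322823-78323072 (plus strand), chr12:54203875-54204124 (minus strand) and chrX:106186850-106187099 (plus strand). Pdk1 is shown from 250 to 10 bases before its start, 241 bases at chr2:71872974-71873214 (plus strand). The bases between these and the start lie inside the full span that RefSeq gives the gene and are left out. For Pfkfb3, Ankrd37 and Ldha, whose windows lie wholly or partly inside the full span that RefSeq gives the gene, 30 bases around a match are given, at chr2:11553972-11554001 (minus strand), chr8:45999851-45999880 (minus strand) and chr7:46845752-46845781 (plus strand).
Aldoc: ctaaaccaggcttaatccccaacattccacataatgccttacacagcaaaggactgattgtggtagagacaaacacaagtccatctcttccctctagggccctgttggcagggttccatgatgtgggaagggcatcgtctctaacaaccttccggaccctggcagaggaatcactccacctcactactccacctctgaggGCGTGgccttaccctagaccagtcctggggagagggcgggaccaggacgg
Egln3: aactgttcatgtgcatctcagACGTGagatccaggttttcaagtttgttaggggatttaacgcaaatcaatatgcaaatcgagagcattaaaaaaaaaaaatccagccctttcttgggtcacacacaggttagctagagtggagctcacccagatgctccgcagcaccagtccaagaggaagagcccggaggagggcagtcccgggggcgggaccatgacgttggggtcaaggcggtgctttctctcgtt
Pdk1: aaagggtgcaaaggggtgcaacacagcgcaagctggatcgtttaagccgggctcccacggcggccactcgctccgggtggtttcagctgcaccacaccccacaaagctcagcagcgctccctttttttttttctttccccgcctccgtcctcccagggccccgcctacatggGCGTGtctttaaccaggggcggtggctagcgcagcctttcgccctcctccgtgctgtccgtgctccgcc
Pgk1: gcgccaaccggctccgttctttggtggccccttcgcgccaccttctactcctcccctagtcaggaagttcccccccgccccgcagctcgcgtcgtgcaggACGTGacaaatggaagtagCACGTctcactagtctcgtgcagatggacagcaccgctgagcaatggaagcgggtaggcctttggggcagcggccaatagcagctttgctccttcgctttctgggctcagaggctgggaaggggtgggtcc
Pfkfb3: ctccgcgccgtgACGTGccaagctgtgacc
Ankrd37: ggctgcacatgtcagtgtttgggtACGTGa
Ldha: cctaCACGTGggttcccgCACGTccgctgg

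The single match of Aldoc begins 50 bases before the start and that of Pdk1 78 bases before it, both as GCGTG. Egln3 has 1 match, 229 bases before the start, and Pgk1 has 2, at 150 and 131 bases. Ldha, which did not differ between the tissues beyond the spread of the arrays, has 5 matches in its 250 bases. With both strands of each CACGTG counted, as here, that is the largest number among the members together with Bnip3. Overlapping matches are not separate sites. The 32 members with a promoter in the RefSeq table are not the same 32 as those with a probe set. They include Gpi1 and Eno1, which had no probe set of 1 symbol, whereas Epas1, Ndrg1 and Bnip3l had no promoter there. Of these 32 members, 25 (78.1%) hold at least 1 match within 250 bases. That compares with 38.6% of 27025 promoters (1 per gene) and 55.7% of the 10437 promoters of genes in the test. Matches were thus present both in members whose intensity varied and in members whose intensity did not, and a match is a description of the letters only.

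The 4 arrays had median intensities between 53.7 and 55.7 and highest intensities between 19203 and 20912. Of 10 stromal markers 9 had a probe set of 1 symbol, Ly6a having none, and all 9 passed the filter. Their sums were 53429 to 57786 in bone marrow and 58555 to 64989 in colonic MSC. Vim lay between 15815 and 16159 and Nt5e between 27.6 and 209. Thy1 was at 32.8 and 22.0 in bone marrow against 4516 and 9032 in colonic MSC, the largest log2 difference of all genes (7.30). Toward bone marrow, Pdgfra was at 1610 and 2493 against 492 and 743, and Pdgfrb at 5042 and 4686 against 3377 and 3844. By mean log2 value, 6 of the 9 stromal markers were higher and 3 lower in colonic MSC. Of 10 macrophage and leukocyte markers 7 passed the filter, with summed intensities of 1187 to 2890 in bone marrow and 1828 to 2933 in colonic MSC, and Ptprc, Adgre1 and Aif1 lay at or below 32.1. Among the others Cd53 was at 14.0 and 15.7 against 155 and 1333, and Lyz2 ranged from 31.7 in bone marrow replicate 2 to 1589 in bone marrow replicate 1. Of 10 intestinal epithelial markers 6 passed, with sums of 5420 to 6541 in bone marrow and 281 to 3070 in colonic MSC. Krt19 was at 6223 and 5083 against 1890 and 105, and Lgr5 at 124 and 73.1 against 12.9 and 9.3. Krt20 reached 889 in colonic replicate 1 alone, and Epcam, Vil1, Muc2 and Cdx2 lay at or below 25.6. By mean log2 value, 1 of the 6 was higher and 5 were lower in colonic MSC. Of 6 endothelial markers 2 passed, and Pecam1 lay at or below 2.48. All 7 smooth muscle markers passed, with sums of 31083 to 47068 in bone marrow and 50732 to 57684 in colonic MSC, and all 7 were lowest in bone marrow replicate 2, where Cnn1 was at 33.0 against 8477 to 11529 elsewhere. Colonic replicate 1 stood apart with Des at 2379 and Myh11 at 1123 against at most 52.4 and 43.4 elsewhere. Of 7 proliferation markers 6 were measured, with sums of 37563 and 40882 in bone marrow MSC, 46831 in colonic replicate 2 and 19338 in colonic replicate 1. The part of these marker levels in the results below was not tested, and fewer cells of a type cannot be told apart from less RNA per cell. The ratio of 3′ to 5′ control signal was 1.44 to 1.60 for Gapdh and 1.59 to 2.08 for Actb.

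The comparison asks whether genes of sugar breakdown and of the oxygen response differ between MSC of the colon and of the bone marrow kept in the same medium. Of 12 glycolytic enzyme genes in the test, 10 differed by less than 0.5 on the log2 scale, near the 77.2% of all genes that did so. Over all 31 members in the test 19 (61.3%) did so. The median size of the difference, leaving out its sign, was 0.449 in the members and 0.226 in all genes. In most members the lines of a tissue differed by more than the tissues did, as in most genes. A log2 difference is here the mean of log2(intensity + 13.7) in colonic MSC minus that in bone marrow MSC, and intensities of different genes are not compared as amounts. The members in the test were 31, all of which passed the filter on low values. With limma over 12920 genes, 0 of the 31 members passed an adjusted p of 0.05 (background 0.00%), and 0 passed 0.1 (background 0.379%). The lowest adjusted p among them was 0.664, for Aldoc. These counts are weak evidence of no difference, since in simulated data, with the settings given below, the adjusted p recovered 4.4% of log2 differences of 1. With an unadjusted p below 0.05 there were 2 members higher in colonic MSC, Aldoc and Egln3 (background 3.30%), and 0 lower (background 2.70%). In either direction the background on all 4 arrays was 6.00%. The size of the differences depended on the lines used, and log2 differences without single lines are given below for some members. With 2 arrays per tissue the smallest p of an exact permutation test is 0.333, so no such test was run.

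A difference of at least 2-fold on this scale (1 or more in log2) was seen in 5 of the 31 members (background 9.02%), 3 toward colonic MSC (Aldoc, Pfkfb3 and Ankrd37; background 5.52%) and 2 toward bone marrow MSC (Epas1 and Pdk4; background 3.51%). The count was 8 without colonic replicate 2, where the share of all genes is not given here. The arrays of the tissues did not overlap in 7 members (background 33.5%), 2 with colonic MSC higher (Aldoc and Egln3; background 18.4%) and 5 with colonic MSC lower (Hk1, Pfkl, Tpi1, Pdk1 and Adm; background 15.1%), which is a share below that of all genes toward colon and near it toward bone marrow. The median log2 difference was -0.014 over the members and 0.013 over all genes. In 26 of the 31 members the larger gap between lines of 1 tissue exceeded the difference between the tissues, close to the 79.2% of all genes. The exceptions were Pfkl, Aldoc, Tpi1, Pdk1 and Egln3.

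**Figure D1:**
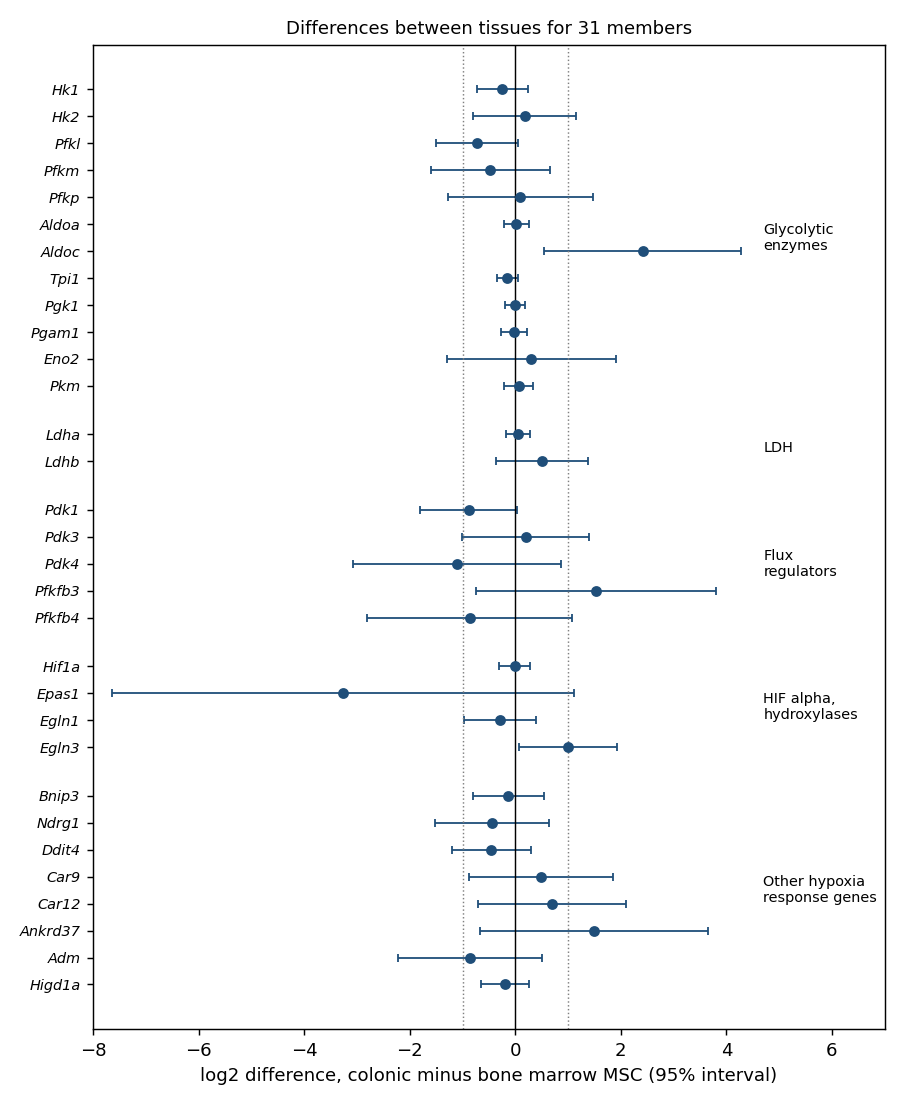
Log2 difference of colonic minus bone marrow MSC (points) with limma's 95% interval (bars) for 31 members in 5 role groups, 2 arrays per tissue, dotted lines at -1 and 1. Intervals lie clear of 0 for Aldoc and Egln3 before adjustment for the number of genes, and the widest belongs to Epas1.

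Of 15 listed glycolytic enzyme genes, 12 were in the test. Their median log2 difference was 0.0088, 6 being positive and 6 negative, and 10 lay within 0.5 of 0, against 77.2% of all genes. Gapdh, glyceraldehyde-3-phosphate dehydrogenase, was matched only by the array's control probe sets and was therefore not tested. Its 3′ control probe set was at 12971 and 12654 on the marrow arrays and 13322 and 12781 on the colonic arrays, so the arrays of the tissues overlapped. Eno1 and Gpi1 are not analysed here.

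The enzymes of the lower and middle steps with bright probe sets were almost level across the arrays. Pgk1, phosphoglycerate kinase, was at 15056 and 14839 on the marrow arrays and 15450 and 14452 on the colonic arrays, a log2 difference of -4.6e-04 with a 95% interval from -0.19 to 0.19. Aldoa, the main aldolase of muscle and most other cells, was at 13636 and 14948 against 15082 and 13857. Its log2 difference was 0.018 ± 0.088 (SE), and 0.028 to 0.18 in its other, less bright probe sets. Pgam1, a phosphoglycerate mutase, was at 10247 and 10861 against 10785 and 9966 (log2 difference -0.025 ± 0.093, SE). The 95% intervals of these 3 genes lay between -0.27 and 0.25. Their probe sets were near the top of the arrays' range, and saturation was not tested. Pkm, the pyruvate kinase of most tissues, was at 10557 and 10975 against 12100 and 10455 (log2 difference 0.063 ± 0.11, SE), and its splice forms were not told apart. Tpi1, triosephosphate isomerase, was at 12318 and 12413 on the marrow arrays and 11321 and 10952 on the colonic arrays. Both bone marrow lines were above both colonic lines, by a small step: the log2 difference was -0.15 ± 0.076 (SE, adjusted p = 0.946), and -0.22 and -0.37 in the other probe sets.

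Hexokinases and phosphofructokinases, which carry out the committing steps, showed more spread. Hk1, the widely expressed hexokinase, was at 5166 and 4987 on the marrow arrays and 4893 and 3744 on the colonic arrays, a log2 difference of -0.25 ± 0.18 (SE) with the tissues not overlapping. Hk2, the inducible hexokinase, was at 2576 and 4852 against 4676 and 3441, with overlapping arrays and a log2 difference of 0.18 ± 0.37 (SE). Pfkl, the liver-type phosphofructokinase, was at 2213 and 3428 on the marrow arrays and 1756 and 1569 on the colonic arrays. It was lower in both colonic lines, with a log2 difference of -0.73 ± 0.29 (SE, unadjusted p = 0.061 and adjusted p = 0.853 with limma), and its other 2 probe sets gave -0.83 and -0.87. Without bone marrow replicate 2 the difference was -0.41. Pfkm, the muscle-type subunit, reached 2319 in bone marrow replicate 1, the other 3 arrays lying at 1116 to 1166. Pfkp, the platelet-type subunit, reached 4479 in colonic replicate 1 and was at 1663 in colonic replicate 2, below both bone marrow lines (2265 and 2872).

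Aldoc, the brain-type aldolase, had the largest difference toward colonic MSC among the members. Its intensity was 44.4 and 52.4 in the bone marrow lines and 630.5 and 156 in the colonic lines, means of 48.4 ± 5.66 and 393 ± 336 (SD, n = 2). The arrays did not overlap, the closest being 2.97-fold apart, but the colonic lines differed from each other by 4.04-fold. The log2 difference was 2.42 ± 0.705 (SE, unadjusted p = 0.022 and adjusted p = 0.664 with limma), 1.45 without colonic replicate 1 and 3.38 without colonic replicate 2. A second Aldoc probe set, below the filter, was at 4.05 and 3.60 against 21.9 and 13.5. Eno2, the neuronal enolase, was at 161 and 216 on the marrow arrays and 400 and 133 on the colonic arrays, again highest in colonic replicate 1 but with overlapping arrays.

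Lactate dehydrogenase is built from Ldha and Ldhb subunits, the first favouring lactate production in the textbook view. Ldha was at 13468 and 14799 on the marrow arrays and 15159 and 14047 on the colonic arrays, with a log2 difference of 0.048 and a 95% interval from -0.18 to 0.28. Ldhb was at 2235 and 1589 on the marrow arrays and 2164 and 3326 on the colonic arrays. Its log2 difference of 0.51 ± 0.33 (SE, adjusted p = 0.976) was within the spread of the lines, and all 4 of its probe sets lay between 0.48 and 0.52.

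**Figure D2:**
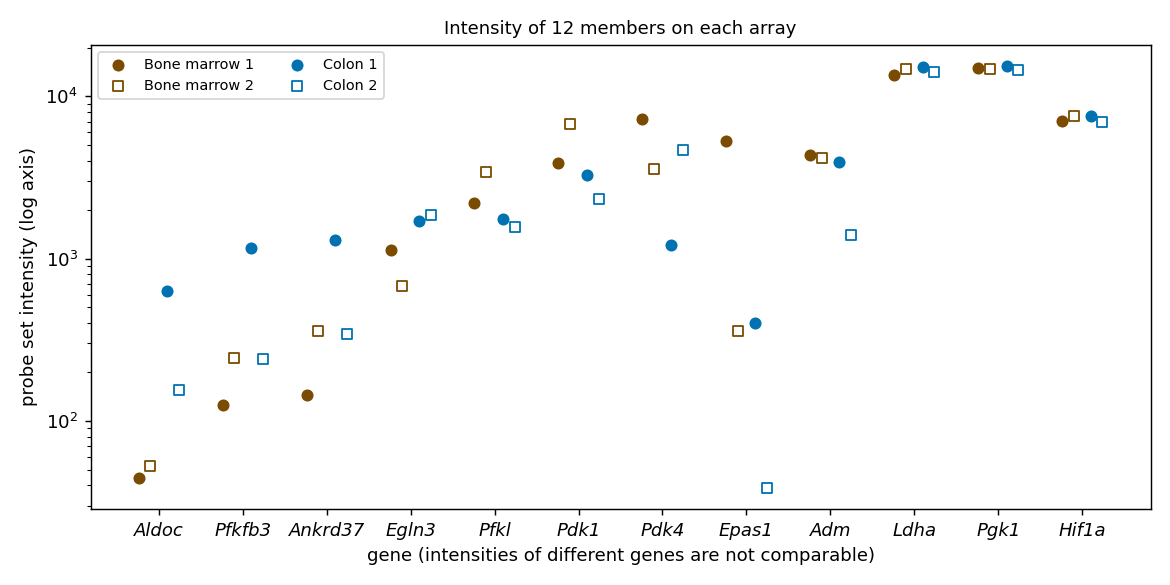
Probe set intensity (log axis) of 12 members on each array, brown for bone marrow and blue for colonic MSC, filled circles for replicate 1 and open squares for replicate 2. Aldoc, Pfkfb3 and Ankrd37 are highest in colonic replicate 1, Epas1 in bone marrow replicate 1, and Ldha, Pgk1 and Hif1a are close to level.

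The flux regulators varied most among the role groups. The larger within-tissue gap had a median of 1.94 on the log2 scale over these 5 genes, against 0.811 over all 31 members and 0.503 over all genes. Pdk1, Pdk3 and Pdk4 encode kinases that inhibit pyruvate dehydrogenase and so hold back the step from pyruvate to acetyl-CoA. Pdk1, a HIF target, was at 3859 and 6779 on the marrow arrays and 3282 and 2346 on the colonic arrays. Both bone marrow lines were above both colonic lines, by 1.18-fold for the closest arrays. The log2 difference was -0.88 ± 0.35 (SE, unadjusted p = 0.057 and adjusted p = 0.848 with limma), it lay between -0.98 and -0.54 over the gene's 4 probe sets past the filter, and it was -0.47 without bone marrow replicate 2.

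Pdk4, the starvation-induced kinase, was at 7307 and 3591 on the marrow arrays and 1209 and 4664 on the colonic arrays. The lowest value was that of colonic replicate 1, and without it the log2 difference of -1.10 ± 0.743 (SE) was -0.14. Pdk3 was at 2348 and 1131 against 1523 and 2305, with no separation of the tissues. The bifunctional enzymes of Pfkfb3 and Pfkfb4 set the level of fructose-2,6-bisphosphate, the activator of phosphofructokinase. Pfkfb3 was at 125 and 245 on the marrow arrays and 1171 and 241 on the colonic arrays, so that colonic replicate 2 lay at the level of bone marrow replicate 2. Its log2 difference of 1.54 ± 0.86 (SE, adjusted p = 0.965) was 0.43 without colonic replicate 1, and the other probe set gave 0.078. Pfkfb4 reached 1710 in bone marrow replicate 1, the other arrays lying at 414 to 470, and its log2 difference of -0.86 became 0.14 without that line.

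Of the HIF alpha subunits, Hif1a, which is controlled mainly at the level of the protein, was at 7063 and 7540 on the marrow arrays and 7539 and 6927 on the colonic arrays. Its log2 difference was -0.014, with a 95% interval from -0.31 to 0.29. Its other, less bright probe sets past the filter gave -0.13 and -0.17. In the last of these the arrays of the tissues did not overlap, at 627 and 648 against 593 and 540. Epas1, which encodes HIF-2 alpha, was the most variable member, with 5343 and 358 on the marrow arrays and 400 and 38.5 on the colonic arrays. Its highest and lowest intensities were 139-fold apart. The bone marrow lines differed by 14.9-fold and the colonic lines by 10.4-fold, and bone marrow replicate 2 lay below colonic replicate 1, so the arrays of the tissues overlapped. The log2 difference of -3.26 ± 1.65 (SE, adjusted p = 0.951) ranged from -5.19 to -1.34 when 1 line was left out. The other Epas1 probe set, below the filter, was at 80.4 and 18.9 against 26.9 and 17.3, with the same array highest and the same array lowest.

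The prolyl hydroxylases that mark HIF alpha for breakdown are themselves HIF targets. Egln3 was at 1138 and 678 on the marrow arrays and 1695 and 1847 on the colonic arrays, means of 908 ± 325 and 1771 ± 108 (SD, n = 2). Both colonic lines were above both bone marrow lines, by 1.49-fold for the closest arrays. The log2 difference was 0.998 ± 0.351 (SE, unadjusted p = 0.040 and adjusted p = 0.778 with limma), its other probe set gave 1.07, and leaving out 1 bone marrow line gave 0.63 (without replicate 2) or 1.37 (without replicate 1). Egln1, the main hydroxylase of HIF-1 alpha, was at 4582 and 6580 against 5203 and 3867, with overlapping arrays and a log2 difference of -0.29 ± 0.257 (SE).

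Of 9 other hypoxia response genes, 8 were in the test, and their median log2 difference was -0.16. Bnip3l is not analysed here, since its probe sets are shared with a pseudogene in the annotation. Bnip3, a mediator of mitochondrial clearance, was at 7497 and 10001 on the marrow arrays and 9681 and 6452 on the colonic arrays. Higd1a, a mitochondrial inner membrane protein gene, was at 6744 and 7917 against 7200 and 5673. Both were lowest in colonic replicate 2 and overlapped between the tissues, and probe sets of Higd1a gave log2 differences from -0.19 to 0.059.

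Ankrd37, an ankyrin repeat gene known as a HIF target, was at 144 and 356 on the marrow arrays and 1302 and 341 on the colonic arrays. Colonic replicate 1 was 3.82-fold above colonic replicate 2, and colonic replicate 2 lay below bone marrow replicate 2. The log2 difference of 1.498 ± 0.815 (SE, adjusted p = 0.965) was 0.55 without colonic replicate 1 and 2.44 without colonic replicate 2. Adm, the vasodilator peptide adrenomedullin, was at 4364 and 4180 on the marrow arrays and 3934 and 1408 on the colonic arrays. It was low in colonic replicate 2 alone, and its log2 difference of -0.85 ± 0.516 (SE, adjusted p = 0.969) was -0.12 without that line. Its second probe set gave -0.90.

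Ndrg1, a stress-responsive gene linked to differentiation, was at 2270 and 1887 on the marrow arrays and 1063 and 2150 on the colonic arrays, and the log2 difference of its 5 probe sets lay between -0.48 and -0.13. Ddit4, an inhibitor of mTORC1 signalling, was at 4983 and 3506 against 2575 and 3620. Both genes were lowest in colonic replicate 1, unlike Ankrd37. The carbonic anhydrases that acidify the outside of hypoxic cells were near the floor: Car9 at 20.4 and 30.7 on the marrow arrays and 73.9 and 20.2 on the colonic arrays, Car12 at 21.4 and 53.6 against 101 and 40.2. Both were highest in colonic replicate 1, and the second Car12 probe set past the filter had a log2 difference of 0.069.

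**Figure D3:**
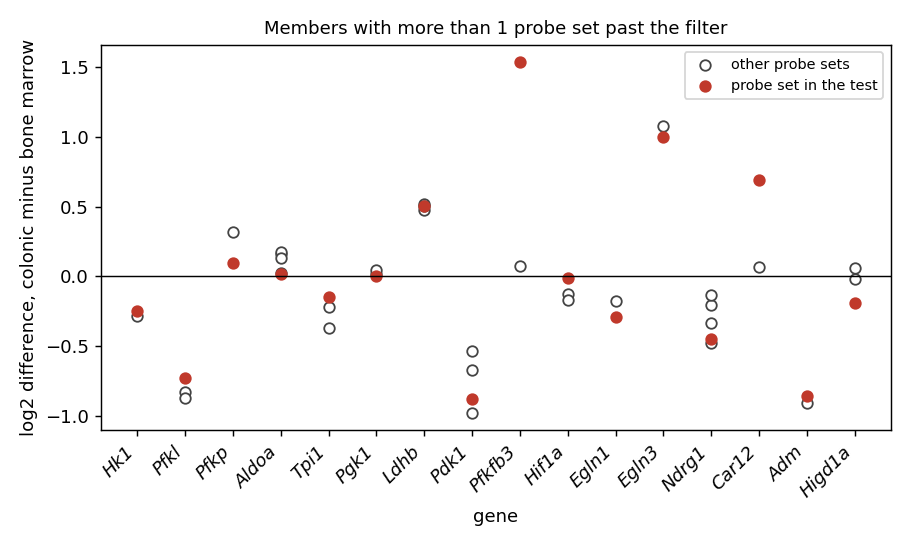
Log2 difference of colonic minus bone marrow MSC for each probe set past the filter of the 16 members with more than 1, filled for the probe set in the test and open for the others. In 14 of the 16 genes all probe sets have the same sign, with Pfkfb3 and Car12 showing the widest spread apart from 0.

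By line, 11 of the 31 members had their highest value in colonic replicate 1 (background 30.1%), 9 in bone marrow replicate 1 (background 24.1%), 9 in bone marrow replicate 2 (background 23.9%) and 2 in colonic replicate 2 (background 22.0%). The lowest value fell on colonic replicate 2 in 16 members (background 20.1%), on bone marrow replicate 1 in 7 (background 18.5%), on bone marrow replicate 2 in 5 (background 32.5%) and on colonic replicate 1 in 3 (background 28.8%). The members' median deviation from the mean of the 4 arrays was -0.20 on the log2 scale in colonic replicate 2, 0.070 in colonic replicate 1, 0.047 in bone marrow replicate 2 and -0.029 in bone marrow replicate 1, where all genes had 0.019, 0.013, -0.038 and 0.031. The members highest in colonic replicate 1 included Aldoc, Pfkfb3, Ankrd37, Eno2, Pfkp, Car9 and Car12, each at least 2.5-fold above colonic replicate 2. This line also had the lowest sum of proliferation markers, 19338 against 37563 to 46831, and the highest Des and Myh11, and their part in the result was not tested.

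**Figure D4:**
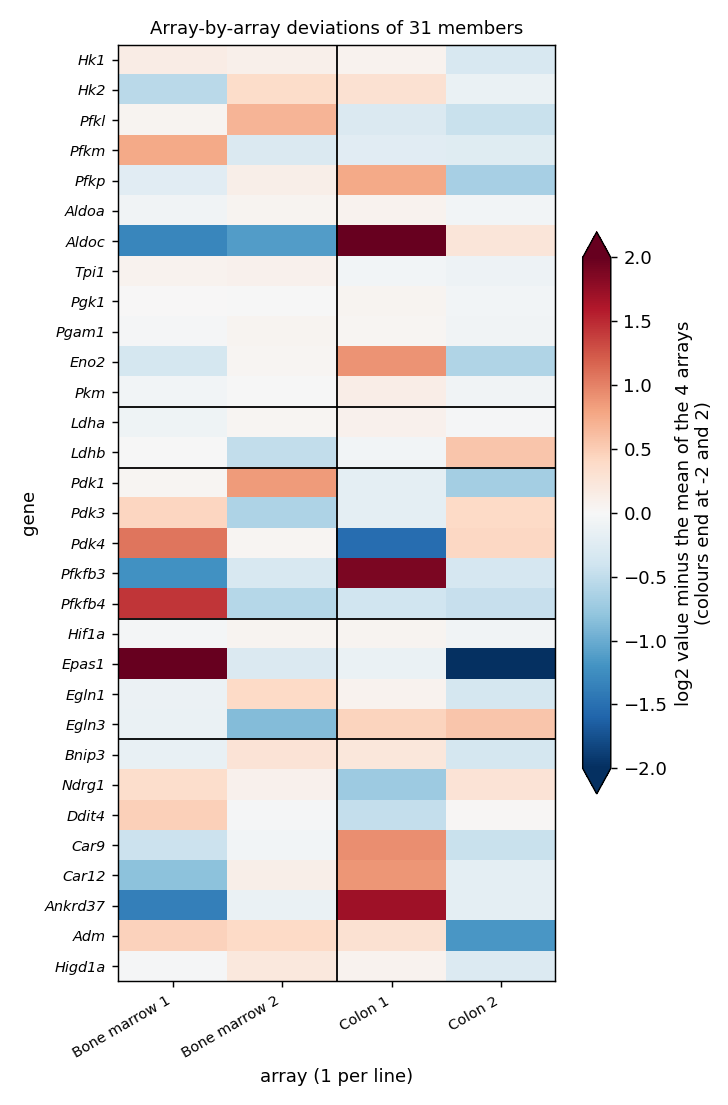
Log2 value of each of 31 members on each array minus the mean of its 4 arrays (colour, ending at -2 and 2), horizontal lines separating the 5 role groups and the vertical line the tissues. The lines of 1 tissue often differ in colour, as for Pfkfb3, Ankrd37, Pdk4 and Epas1.

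Other genes of these pathways were counted from named lists, and 0 of them passed an adjusted p of 0.05. Of 31 further hypoxia response genes 30 were measured, with a median log2 difference of -0.13. With limma, 1 higher (background 3.30%) and 2 lower (background 2.70%) in colonic MSC had an unadjusted p below 0.05. Vegfa, the angiogenic growth factor, was at 2665 and 3448 on the marrow arrays and 5020 and 4239 on the colonic arrays (log2 difference 0.60 ± 0.21, SE). Ppp1r3c, a glycogen-targeting phosphatase subunit, was at 133 and 208 against 70.7 and 27.9 (log2 difference -1.61 ± 0.47, SE), and Cited2, a transcription cofactor that competes with HIF-1 alpha, was at 8338 and 8571 against 6546 and 3926 (log2 difference -0.74 ± 0.27, SE). Mxi1, a MYC antagonist, came next, at 2284 and 4054 against 1603 and 1725. In these 4 genes, picked by lowest unadjusted p, the arrays of the tissues did not overlap, with Vegfa higher and the other 3 lower in colonic MSC. Over the 30 genes this held for 2 higher (background 18.4%) and 7 lower (background 15.1%). Of the 30 genes, 18 were lowest in colonic replicate 2 (background 20.1%). The highest value fell on colonic replicate 1 in 15 (background 30.1%) and on bone marrow replicate 2 in 14 (background 23.9%). It fell on bone marrow replicate 1 in 1 (background 24.1%) and on colonic replicate 2 in 0 (background 22.0%).

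Of 12 further genes of pyruvate dehydrogenase and its regulation, 10 were measured, and 9 lay within 0.5 of 0 on the log2 scale, where 77.2% of all genes lay. The exception was Pdp1, the phosphatase that reactivates pyruvate dehydrogenase, at 956 and 1072 on the marrow arrays and 465 and 539 on the colonic arrays, with a log2 difference of -0.996 ± 0.307 (SE, unadjusted p = 0.026 and adjusted p = 0.689 with limma). Pdk1 and Pdp1, which act on the enzyme in opposite directions, both had lower values in both colonic lines. Pdhb, a subunit of the enzyme, was at 5491 and 5619 against 5124 and 4857, lower in both colonic lines by a small step. Its log2 difference was -0.15 ± 0.13 (SE), and -0.45 in its other probe set. The pyruvate carrier gene Mpc1 was at 3880 and 3047 against 2529 and 3082.

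Of 8 pentose phosphate pathway genes 7 were measured, with 5 positive and 2 negative differences and a median of 0.12. Taldo1, transaldolase, was at 2482 and 2306 on the marrow arrays and 5631 and 6765 on the colonic arrays. The lines of each tissue were close to each other, and the log2 difference was 1.36 ± 0.175 (SE, unadjusted p = 8.57e-04 and adjusted p = 0.151 with limma), the smallest p among the members and the pathway genes tested. Pgd, phosphogluconate dehydrogenase, was at 5513 and 6207 against 8558 and 6627. H6pd, hexose-6-phosphate dehydrogenase, was at 2048 and 1379 against 1442 and 1311, with overlapping arrays and a log2 difference of -0.29 ± 0.30 (SE). Tkt, transketolase, was at 10100 and 11811 against 11123 and 12152, again with overlapping arrays. Of 17 other glycolytic isoenzymes and sugar phosphate enzymes 10 were measured, with 8 positive and 2 negative differences and a median of 0.22. Eno3, the muscle enolase, was at 2894 and 340 on the marrow arrays and 4143 and 4919 on the colonic arrays, a log2 difference of 2.16 ± 1.03 (SE, adjusted p = 0.939), with bone marrow replicate 2 far below the other lines. Among 9 other HIF pathway components, all measured, 8 lay within 0.5 of 0 (77.2% of all genes), and Arnt2, a partner subunit of HIF alpha, was at 526 and 522 on the marrow arrays and 139 and 514 on the colonic arrays.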

How the data were processed

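RNA from 2 bone marrow and 2 colonic MSC lines, amplified with a biotin label, was measured on mouse expression arrays, per the labels' protocols. The authors deposited 1 intensity per probe set, linear by its range; how probes were summarised, corrected and scaled is not given in the sources used here. Precision is limited by the number of arrays. To each intensity 13.7 was added (0.25 of the overall median, 54.6) before taking log2. Leaving out 64 control probe sets, 34945 probe sets had 1 symbol, 932 several and 9160 none. Probe sets passed when their mean log2 value was above the 40th percentile (intensity 31.9), and each of the 12920 genes left was represented by its brightest such probe set. Genes bright in 1 tissue only can pass this filter. Limma 3.58.1 in R 4.3.3 (lmFit, eBayes with trend, tissue as the only term, 2 residual degrees of freedom, prior 2.53) gave two-sided p-values, adjusted over all genes by the method of Benjamini and Hochberg. In 10 simulated draws over 12920 genes, a small share of the genes was changed, by log2 sizes of 1, 2, 4 and 6 mixed together. Each gene kept the spread seen between its own arrays, and the shares recovered depend on these settings. The adjusted p recovered 4.4% of log2 differences of 1 and 24.2% of those of 2. It recovered 64.8% of those of 4 and 77.4% of those of 6. The unadjusted p recovered 71% of those of 1 and 88.6% of those of 2. A lack of genes past the adjusted threshold therefore cannot exclude log2 differences of 1 or 2. Promoter letters were searched in RefSeq windows on GRCm38.p6, taking the most upstream of the starts listed there for a gene; a gene's full RefSeq span can reach further.

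Members, lists and tests were chosen with earlier results of these data known. All members could be named, and of each list of other pathway genes up to 4 by unadjusted p. The alternatives changed the scaling (quantile normalization or median centring), the pseudocount (1 or the median), the filter (none, or the 60th percentile) and the gene summary (mean of probe sets, no probe sets with shared targets whose IDs end in s_at or x_at, or every probe set by itself). Others were eBayes without trend or robust, the replicate number as a block, a threshold of 0.1 on the adjusted p, and leaving out single arrays. A tissue then has 1 array, taken to have the spread of the 2 in the other.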

Additional observations from a re-analysis of the deposited data

How the results depend on the processing

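The count of members past an adjusted p of 0.05 with limma was 0 under every alternative named in the processing summary, with an adjusted p of 0.1 included. Over all genes that count was 0, and it was 12 to 17 with quantile normalization, median centring, a pseudocount of 1, the stricter filter, averaged probe sets, no trend or robust eBayes, and 33 without colonic replicate 1. The count of members at least 2-fold apart was 5, and 5 to 8 when 1 array was left out, the 8 being without colonic replicate 2, and 6 with a pseudocount of 1. The share of all genes under these alternatives is not given here. The members' median log2 difference of -0.014 ranged from -0.14 to 0.047 when 1 array was left out, and no alternative moved it by more than the spread of the list median between arrays of a tissue (SD 0.14). Whether lines of the same replicate number share a batch was not tested. The gaps of replicate 1 minus 2 in the tissues correlated with r = 0.106 over genes. With the number as a block the count of members called stayed 0, and 5 members were at least 2-fold apart. At an unadjusted p below 0.05 with limma there were then 1 higher (Aldoc) and 1 lower (Epas1). The SE of Epas1 was 0.393 with the block and 1.65 without it, and its adjusted p with limma was 0.302. Egln3 then had an unadjusted p of 0.052 with limma. Among single members, 364 of 368 differences kept their sign under the alternatives that use all arrays, and 100 of 124 when 1 array was left out. The exceptions with all arrays were Aldoa (-0.048 with quantile normalization and -0.0018 with median centring), Ldha (-0.0063 with quantile normalization) and Pgk1 (0.021 with the mean of probe sets); the cause was not tested. With 1 array left out, the log2 difference turned its sign, over the range given, in Hk2 (-0.27 to 0.64), Pfkm (-0.99 to 0.053), Pfkp (-0.61 to 0.81), Aldoa (-0.048 to 0.084), Pgk1 (-0.049 to 0.048), Ldha (-0.020 to 0.12), Pfkfb4 (-1.87 to 0.14), Pgam1 (-0.082 to 0.032), Pdk3 (-0.32 to 0.72), Hif1a (-0.075 to 0.047), Bnip3 (-0.42 to 0.16), Eno2 (-0.45 to 1.05), Pkm (-0.042 to 0.17), Ndrg1 (-0.95 to 0.054) and Car9 (-0.20 to 1.17).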

Other observations

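Some further hypoxia response genes, picked after their values were seen, differed widely between lines of the same tissue. Slc2a3, a high-affinity glucose transporter, was at 24.2 and 623 on the marrow arrays and 2922 and 50.2 on the colonic arrays. Stc2, a secreted glycoprotein hormone gene, was at 33.9 and 654 against 384 and 115. Ak4, a mitochondrial adenylate kinase gene, was at 2463 and 5484 against 5198 and 1558. In each of these 3 genes bone marrow replicate 2 and colonic replicate 1 had the higher value of their tissue. Tmem45a was at 5771 and 1478 against 6720 and 952, with replicate 1 higher in both tissues.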
